A study of Mus musculus with 36 samples.

Results

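The genes of the necrosome and of the caspase-8 complex were followed in cultured mouse glia whose polyadenylated RNA was sequenced after 4 h of treatment. The set is 9 genes listed by name (Ripk1, Ripk3, Mlkl, Casp8, Fadd, Cflar, Zbp1, Cyld and Map3k7). All 9 were listed and tested in both tables, among 15385 genes listed and 10524 tested in microglia and 14551 listed and 13842 tested in astrocytes. Both cell types were taken from mixed glial cultures of pooled brains of C57BL/6 mice that were 2 to 4 days old, on day 12 of culture, microglia by selection for CD11b and astrocytes by a second selection from what remained. Microglia had 4 libraries for each of 6 treatments, DMSO (the vehicle), Nec-1s (N), TNF/5z-7 (T/5z), TNF/5z-7/Nec-1s (T/5z/N), TNF/Smac/zVAD (T/S/Z) and TNF/Smac/zVAD/Nec-1s (T/S/Z/N). Astrocytes had 3 libraries for each of 4 treatments, DMSO, N, T/S/Z and T/S/Z/N. All groups share the strain, the age range and the 4 h of treatment, and every stimulated group received TNF, with no group given TNF alone. The series calls the microglial libraries biological replicates, and the methods say of cell experiments in general that replicates come from different litters, without tying a library to a litter. P-values measure the spread between these libraries that is left once the replicate number is taken into account. For each microglial gene, the deposited values of all replicates have the same average across treatments. SDs, ranges and overlaps of microglial groups therefore leave out differences between replicate averages.

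When TNF binds its receptor, the kinase RIPK1 is recruited, ubiquitinated and held in a signalling complex in which TAK1, the product of Map3k7, drives the IKK and MAP kinases. If that restraint is lost, for instance with the TAK1 inhibitor 5z-7, RIPK1 can enter a complex with the adaptor FADD and caspase-8 and the cell dies by apoptosis. A Smac mimetic removes the cIAP ubiquitin ligases and zVAD blocks caspases, so that under T/S/Z RIPK1 can instead bind RIPK3 through the RHIM motif that both carry. RIPK3 then phosphorylates MLKL, which breaches the plasma membrane (necroptosis). Nec-1s blocks the kinase activity of RIPK1. These compounds act on proteins, so the mRNA of Ripk1 and Map3k7 is no check that they worked.

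Values are log2(FPKM + 1), where FPKM counts fragments relative to exon length and to the depth of the library. The authors scaled them to the 75th percentile, separately for each cell type. A change is a difference on this log2 scale and understates the change of a low gene. Groups were compared by limma with the replicate number as a block, and p-values were adjusted by Benjamini-Hochberg over all tested genes. The threshold was a fold change over 1.5 with an adjusted p under 0.05. "Rose" and "fell" are used where the adjusted p was under 0.05 and stayed there when each replicate was left out in turn, and the fold minimum is named separately. Changes whose adjusted p lost that side without a replicate are given as values with those p-values. Estimated depth was 21380000 to 22360000 reads or fragments per astrocyte library and 18240000 to 25260000 in the microglial libraries of replicate 4. It was read from scaled values, so it includes the unknown scaling factor of each library and does not compare sequencing depth. The depth of the other microglial libraries is unknown. Reads behind a value could only be estimated. They were fewest for Mlkl and Ripk3 in astrocytes, at 40 to 276 and 71 to 175 per library, for Zbp1 there, at 71 in its lowest library, and for Ripk3 in microglia, at 125 to 180 in replicate 4. All 10 microglial marker genes were above a log2 value of 1 in DMSO microglia and all 10 astrocyte markers in DMSO astrocytes. Of the astrocyte markers, 7 of 10 were at or under a log2 value of 1 in DMSO microglia and 3 of 10 in either stimulus. Their sum there, 175 to 235 FPKM in DMSO, 81.2 to 107 in T/5z and 112 to 132 in T/S/Z against 3436 to 3503 in DMSO astrocytes, was mostly Glul, which had mean FPKM of 197, 78.2 and 107. The other astrocyte markers had a mean FPKM of 2.46 or less in DMSO microglia, and several went the other way, Slc1a3 from 0.776 to 2.52 and 2.24 and Aqp4 from 0.566 to 3.47 and 2.17. With Nec-1s added to T/5z and T/S/Z the astrocyte sum was 121 to 130 and 135 to 152 FPKM, with mean FPKM of 117 and 137 for Glul, 1.11 and 0.718 for Slc1a3 and 1.07 and 0.415 for Aqp4. Fibroblast and mural markers summed to between 3.54 and 4.46 FPKM in DMSO microglia, 6.52 to 11.1 in T/5z and 2.49 to 4.49 in T/S/Z, and endothelial markers to 6.28 to 8.56, 3.71 to 5.17 and 2.30 to 2.92. With Nec-1s added to each stimulus the first sum was 3.81 to 4.68 and 1.57 to 2.76 FPKM and the second 3.40 to 3.88 and 2.75 to 3.21. Oligodendrocyte markers had median sums of 30.8, 26.4 and 30.5 FPKM and neuronal markers summed to at most 1.95 in any of these groups. The part of all these markers in the microglial results was not tested. In bulk RNA, fewer cells of a type and less RNA per cell cannot be told apart.

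The sequence around the starts of Cflar, Mlkl and Ripk1 is shown first. It spans 250 bases before to 50 bases after a RefSeq start in GRCm38.p6, on the strand of the gene. Motifs were searched on both strands, and a match is a description of these letters and not a binding site. The ISRE search was GAAANNGAAA, the GAS search was TTCNNNGAA, and the NF-kB consensus was used by its name. Of 32851 promoters of the same length, 3.44% held the ISRE, 8.30% the GAS and 8.46% the NF-kB letters. Capitals mark a match. Cflar (chr1:58711241-58711540, plus strand) holds 1 ISRE match, on the opposite strand, that starts 6 bases after the RefSeq start.
Cflar: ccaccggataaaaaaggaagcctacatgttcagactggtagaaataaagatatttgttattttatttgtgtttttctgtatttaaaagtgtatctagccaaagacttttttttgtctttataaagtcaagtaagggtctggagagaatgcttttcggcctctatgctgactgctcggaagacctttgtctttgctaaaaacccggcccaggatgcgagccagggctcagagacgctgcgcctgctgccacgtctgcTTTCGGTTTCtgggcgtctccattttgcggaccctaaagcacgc
Mlkl (chr8:111338156-111338455, minus strand) holds none of these letters.
Mlkl: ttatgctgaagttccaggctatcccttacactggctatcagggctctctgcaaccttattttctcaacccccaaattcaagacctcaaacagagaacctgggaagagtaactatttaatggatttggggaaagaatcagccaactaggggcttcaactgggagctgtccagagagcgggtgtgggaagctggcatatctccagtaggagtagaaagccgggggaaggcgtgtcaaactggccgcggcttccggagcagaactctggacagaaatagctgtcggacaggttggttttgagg
Ripk1 has 2 RefSeq starts. The window of the downstream start (chr13:34002624-34002923, plus strand) holds 2 GAS matches and 1 ISRE match, and the second GAS match overlaps the ISRE match.
Ripk1: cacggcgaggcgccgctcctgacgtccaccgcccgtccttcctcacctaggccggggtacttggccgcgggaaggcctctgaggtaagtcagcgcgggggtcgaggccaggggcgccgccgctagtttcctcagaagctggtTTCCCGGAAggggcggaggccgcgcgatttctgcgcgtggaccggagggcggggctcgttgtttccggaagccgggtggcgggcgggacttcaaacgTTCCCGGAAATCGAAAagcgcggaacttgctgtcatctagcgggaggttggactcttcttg
The window of the upstream Ripk1 start and those of Casp8, Fadd and Ripk3 hold no match. Cyld and Map3k7 hold 1 NF-kB match each, at positions -155 and -92, where 0 is the first base of the RefSeq start. Zbp1 had no entry.

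In DMSO microglia, Zbp1 had the highest level of the 9 genes, 5.57 ± 0.08 (log2, SD, n = 4), followed by Ripk1 at 5.20 ± 0.04 and Casp8 at 5.00 ± 0.08. Cflar, Cyld, Map3k7 and Mlkl followed at 4.19, 3.93, 3.72 and 3.15, and Fadd and Ripk3 were lowest at 2.69 and 2.19. These are levels per length of exon. The libraries of neighbours in this order did not overlap, and the closest were the lowest Cyld library at 3.81 and the highest Map3k7 library at 3.77. In DMSO astrocytes the order was led by Map3k7 at 4.62 ± 0.02 (SD, n = 3), Cflar at 4.47 ± 0.09 and Ripk1 at 4.29 ± 0.04, which did not overlap. Cyld and Casp8 followed, between 3.52 and 3.81 with overlapping ranges. Zbp1 and Mlkl were lowest there, at 1.56 ± 0.15 and 0.96 ± 0.21, and Ripk3 and Fadd lay between 1.91 and 2.15 in all DMSO astrocyte libraries, where their ranges overlap. The receptor-side scaffold Ripk1 was thus well above the effector pair Ripk3 and Mlkl in both cultures.

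Cflar encodes cFLIP, the caspase-like partner that holds caspase-8 in check. It was the only one of the 9 genes past the threshold in microglia, and it passed in both stimuli. The 4 DMSO libraries (replicates 1 to 4) read 4.30, 4.28, 4.08 and 4.09, and the 4 T/5z libraries 6.37, 6.37, 6.36 and 6.25. The 4 T/S/Z libraries read 6.71, 6.80, 6.84 and 6.80. Every stimulated library was above every DMSO library, and every T/S/Z library above every T/5z library. Cflar rose by 2.15 under T/5z (SE 0.0529, limma adjusted p = 4.75e-07, higher in 4 of 4 pairs) and by 2.60 under T/S/Z (SE 0.0697, limma adjusted p = 1.34e-07, 4 of 4 pairs). T/S/Z was higher than T/5z by 0.45 (SE 0.0508, limma adjusted p = 0.000549), a fold of 1.37 that is under the minimum. Among the 9 genes, 1 passed the threshold under each stimulus, against 24.4% of all tested genes under T/5z and 29.6% under T/S/Z, so the share among the 9 was not above that of all genes.

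With Nec-1s, Cflar came part of the way back. The T/5z/N libraries read 5.29, 5.23, 5.34 and 5.40 and the T/S/Z/N libraries 5.62, 5.66, 5.93 and 5.90. No library with Nec-1s overlapped its stimulus alone or DMSO. Cflar fell by 1.02 when Nec-1s was added to T/5z (SE 0.0527, limma adjusted p = 4.54e-06) and by 1.01 when it was added to T/S/Z (SE 0.0540, limma adjusted p = 8.90e-06). The test of the difference between these effects gave 0.01 (95% interval -0.17 to 0.19, limma adjusted p = 0.940). Cflar still stood 1.13 above DMSO in T/5z/N and 1.59 above DMSO in T/S/Z/N, both past the threshold. It was again the 1 member past the threshold, against 7.16% of all tested genes for T/5z/N against T/5z, 12.1% for T/S/Z/N against T/S/Z, 12.8% for T/5z/N against DMSO and 14.1% for T/S/Z/N against DMSO. All these comparisons share control or stimulus libraries, so the values are not independent of each other.

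**Figure D1:**
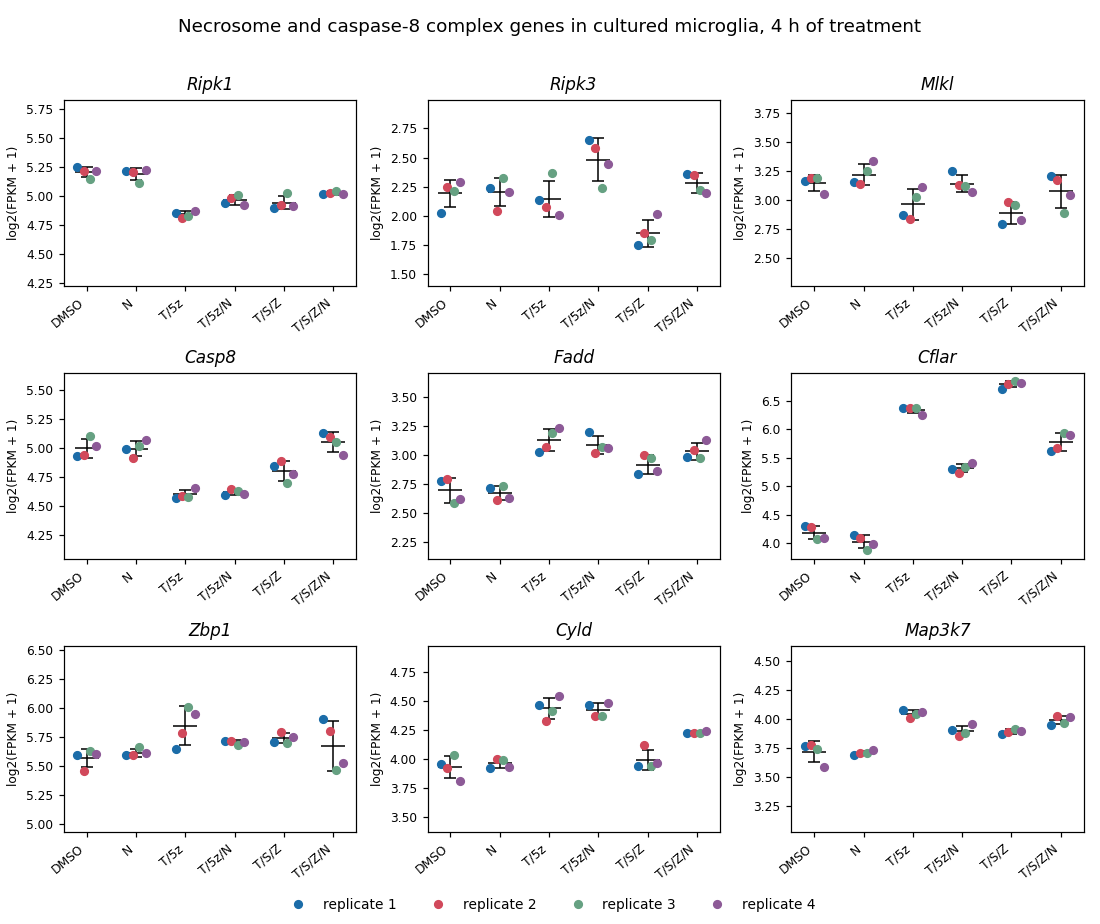
Values of the 9 genes in each microglial library (y axis, log2(FPKM + 1), each panel with its own range of at least 1.6 units) by treatment (x axis), with 4 libraries per treatment, horizontal bars for the mean and error bars for the SD. Cflar stands near 4.2 in DMSO, between 6.25 and 6.84 in the stimuli and between 5.23 and 5.93 with Nec-1s added, while the other genes move by much less.

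The other partners of the caspase-8 complex moved by less than the fold minimum. Casp8, the initiator protease that cleaves RIPK1 and RIPK3, read 4.93, 4.94, 5.10 and 5.02 in DMSO and 4.57, 4.59, 4.58 and 4.66 in T/5z. The groups did not overlap, and Casp8 fell by 0.40 (SE 0.0515, limma adjusted p = 0.000498). In T/S/Z it read 4.85, 4.89, 4.70 and 4.78, lower by 0.19 (limma adjusted p = 0.0383). The adjusted p of that change was 0.0516, 0.122 and 0.106 without replicate 1, 3 or 4, where the change was -0.23, -0.13 and -0.18, and after centring the libraries on their medians it was -0.10 (limma adjusted p = 0.278). Adding Nec-1s to T/S/Z brought Casp8 to 5.13, 5.10, 5.05 and 4.94, a rise of 0.25 (SE 0.0477, limma adjusted p = 0.00284), and adding it to T/5z left it between 4.60 and 4.65, a difference of 0.02 (95% interval -0.08 to 0.12). The 2 effects of Nec-1s differed by 0.23 (limma adjusted p = 0.0225), and that p was 0.0879, 0.0603 and 0.0891 without replicate 1, 2 or 3. Fadd, the adaptor that carries caspase-8, rose by 0.43 under T/5z (SE 0.0838, limma adjusted p = 0.00331), from between 2.59 and 2.79 in DMSO to between 3.03 and 3.23, or by 0.28 with 5 added before the log. In T/S/Z Fadd was 0.22 higher (limma adjusted p = 0.0276, and 0.0695, 0.0909 and 0.0733 without replicate 2, 3 or 4), 0.14 with 5 added and 0.40 after quantile normalization. With Nec-1s Fadd stayed above DMSO, by 0.39 in T/5z/N and by 0.34 in T/S/Z/N (limma adjusted p = 0.00237 and 0.00771), or by 0.25 and 0.22 with 5 added, and it differed from the stimulus alone by -0.04 and 0.11 (limma adjusted p = 0.608 and 0.158).

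The level of Cflar relative to its partner Casp8, as a ratio of FPKM, was higher in every stimulated library than in DMSO. Cflar stood at 0.560 ± 0.078 of Casp8 in DMSO microglia (SD, n = 4), at 3.44 ± 0.23 in T/5z and at 4.09 ± 0.37 in T/S/Z. With Nec-1s the ratio was 1.65 ± 0.10 in T/5z/N and 1.69 ± 0.27 in T/S/Z/N. The lowest stimulated library, at 3.10, was above the highest library with Nec-1s, at 1.97, which was above the highest DMSO library at 0.631. In astrocytes the ratio was 1.84 ± 0.08 in DMSO (SD, n = 3), 2.82 ± 0.59 in T/S/Z and 2.30 ± 0.16 in T/S/Z/N. With Nec-1s alone it was 2.05 ± 0.17 there, and the range overlapped that of T/S/Z/N. These are ratios of mRNA per length, and no test was run on them. The exon length used for Cflar was 7870 bases in microglia and 12669 in astrocytes, and for Casp8 2893 in both. The ratios of the 2 cell types are therefore not on 1 scale.

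The kinases and the effector of the necrosome were lower in stimulated microglia or did not pass the test. Ripk1, the target of Nec-1s, read 5.25, 5.21, 5.14 and 5.21 in DMSO, 4.85, 4.81, 4.83 and 4.87 in T/5z, and 4.90, 4.92, 5.02 and 4.91 in T/S/Z. No stimulated library overlapped DMSO. Ripk1 fell by 0.36 under T/5z (SE 0.0455, limma adjusted p = 0.000408) and by 0.26 under T/S/Z (SE 0.0583, limma adjusted p = 0.00434), a difference of -0.17 after centring the libraries on their medians (limma adjusted p = 0.0307). With Nec-1s it read between 4.92 and 5.01 in T/5z/N, which is 0.12 above T/5z in 4 of 4 pairs (limma adjusted p = 0.0456, and 0.0917, 0.169, 0.117 and 0.05004 without replicate 1, 2, 3 or 4) and 0.24 below DMSO (limma adjusted p = 0.00729), and between 5.01 and 5.04 in T/S/Z/N, 0.08 above T/S/Z (limma adjusted p = 0.122) and 0.18 below DMSO (limma adjusted p = 0.0260, and 0.0936, 0.120 and 0.0675 without replicate 1, 2 or 4). Exons of Ripk1 share 241 bases with Serpinb6a on the opposite strand, and the microglial libraries are not stated to keep strand, so reads there cannot be told apart. Serpinb6a was at 8.30 ± 0.02 in DMSO microglia (n = 4), 7.38 ± 0.09 in T/5z and 7.70 ± 0.02 in T/S/Z, so it moved in the same direction as Ripk1. Its part in the change of Ripk1 was not tested. Ripk1 also shares 511 bases with the pseudogene Gm17084 on its own strand, which was at 1.89 ± 0.52 in DMSO microglia and 0.92 ± 0.62 in T/5z.

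Ripk3, the kinase that activates MLKL, read 2.02, 2.24, 2.21 and 2.29 in DMSO and 1.75, 1.85, 1.79 and 2.01 in T/S/Z. The highest T/S/Z library, 2.01, lay just under the lowest DMSO library, 2.02. Ripk3 fell by 0.34 under T/S/Z (SE 0.0732, limma adjusted p = 0.00371). After quantile normalization that difference was -0.11 (limma adjusted p = 0.215), and with 5 added before the log it was -0.17. Adding Nec-1s to T/S/Z gave 2.35, 2.35, 2.22 and 2.19, with no overlap with T/S/Z, and Ripk3 rose by 0.43 (SE 0.0828, limma adjusted p = 0.00306), or by 0.22 with 5 added, which left it 0.09 above DMSO (limma adjusted p = 0.431). In T/5z Ripk3 overlapped DMSO, with a difference of -0.05 (limma adjusted p = 0.677). With Nec-1s added it was 0.34 higher than in T/5z (limma adjusted p = 0.0350, and 0.119, 0.116 and 0.107 without replicate 1, 2 or 4), or 0.19 higher with 5 added. Against DMSO, Ripk3 in T/5z/N was 0.29 higher, in 4 of 4 pairs (limma adjusted p = 0.0534). That adjusted p lay between 0.0356 and 0.208 when a replicate was left out. The effects of Nec-1s on Ripk3 in the 2 stimuli were not shown to differ, by 0.09 (95% interval -0.22 to 0.40, limma adjusted p = 0.677).

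Mlkl, the membrane effector, read 3.16, 3.19, 3.19 and 3.05 in DMSO microglia and 2.80, 2.98, 2.96 and 2.83 in T/S/Z. These groups did not overlap, and Mlkl fell by 0.26 (SE 0.0639, limma adjusted p = 0.00749). After quantile normalization the difference was -0.10 (limma adjusted p = 0.180), and after centring the libraries on their medians it was -0.16 (limma adjusted p = 0.0502). In T/5z it read 2.87, 2.84, 3.03 and 3.11 and overlapped DMSO, with a difference of -0.18 (limma adjusted p = 0.0786, and 0.0151 without replicate 4). Nec-1s added to T/5z gave Mlkl values between 3.07 and 3.25, and added to T/S/Z values between 2.89 and 3.21, differences of 0.18 and 0.19 (limma adjusted p = 0.0829 and 0.0726). When a replicate was left out the first ranged from 0.11 to 0.25, with an adjusted p of 0.0315 without replicate 4, and the second from 0.11 to 0.27, with 0.0239 without replicate 3. Zbp1, the RHIM sensor of Z-form nucleic acid that can engage RIPK3 without RIPK1, read 5.59, 5.46, 5.63 and 5.61 in DMSO and 5.64, 5.79, 6.01 and 5.94 in T/5z. The lowest T/5z library lay just above the highest DMSO library, and Zbp1 rose by 0.27 (SE 0.0651, limma adjusted p = 0.00842), or 0.16 after quantile normalization (limma adjusted p = 0.0540). Under T/S/Z it was 0.16 higher than in DMSO (limma adjusted p = 0.0371), a difference that was -0.01 after quantile normalization and 0.26 after median centring, and had an adjusted p of 0.0775, 0.182 and 0.0698 without replicate 1, 2 or 4. With Nec-1s added, Zbp1 differed from T/5z by -0.14 and from T/S/Z by -0.06 (limma adjusted p = 0.105 and 0.485). The first was -0.21 to -0.08 when a replicate was left out, with an adjusted p of 0.0276 without replicate 1, and -0.19 after median centring (limma adjusted p = 0.0458).

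Cyld rose in T/5z and overlapped DMSO in T/S/Z. Cyld, the deubiquitinase that strips chains from RIPK1, read 3.96, 3.92, 4.03 and 3.81 in DMSO and 4.46, 4.33, 4.41 and 4.54 in T/5z, without overlap, and rose by 0.51 (SE 0.0690, limma adjusted p = 0.000628). In T/S/Z it read 3.93, 4.12, 3.94 and 3.96, which overlaps DMSO (difference 0.06, 95% interval -0.10 to 0.22). Cyld was lower in T/S/Z than in T/5z by 0.45 (SE 0.0725, limma adjusted p = 0.00295), a fold of 1.36 that is under the minimum. With an ordinary variance for each gene the adjusted p was 0.0530. With Nec-1s added to T/S/Z Cyld read 4.22, 4.22, 4.22 and 4.24, all above every T/S/Z library, and rose by 0.24 (limma adjusted p = 0.00502). Adding Nec-1s to T/5z gave a difference of -0.02 (95% interval -0.11 to 0.08). The difference between those effects was 0.25 (limma adjusted p = 0.0241, and 0.102, 0.121 and 0.114 without replicate 1, 3 or 4).

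Map3k7, the gene of TAK1, read 3.77, 3.77, 3.74 and 3.59 in DMSO and 4.07, 4.01, 4.04 and 4.06 in T/5z. It rose by 0.33 in T/5z (SE 0.0580, limma adjusted p = 0.00222), where its product is the target of the inhibitor. In T/S/Z it read 3.87, 3.89, 3.91 and 3.90, higher by 0.17 (limma adjusted p = 0.0366, between 0.0667 and 0.124 without each replicate in turn), or by 0.27 after median centring. Nec-1s added to T/5z gave 3.91, 3.85, 3.88 and 3.96, all below T/5z, a difference of -0.15 (limma adjusted p = 0.0244, and 0.0871, 0.0810 and 0.0567 without replicate 1, 2 or 3). Nec-1s added to T/S/Z gave 3.95, 4.02, 3.97 and 4.02, all above T/S/Z, a difference of 0.10 (limma adjusted p = 0.0951). These effects of Nec-1s differed from each other by 0.24 (95% interval 0.13 to 0.36, limma adjusted p = 0.00538), a difference that stayed under an adjusted p of 0.05 without each replicate in turn. Between T/S/Z and T/5z themselves Map3k7 differed by -0.15 (limma adjusted p = 0.0518).

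At any size of change, 5 of the 9 genes were higher and 2 lower in T/5z than in DMSO at an adjusted p under 0.05, against 27.4% of tested genes higher and 36.8% lower. Under T/S/Z 4 were higher and 4 lower, against 30.3% and 41.1%. Shares of that size over all genes mean that a call of small size is common in these microglia. The median change of the 9 genes was 0.27 in T/5z and 0.06 in T/S/Z, beside -0.06 and -0.08 for all tested genes. For T/5z/N against T/5z, 2 were higher and 2 lower (27.3% and 21.1% of tested genes), and for T/S/Z/N against T/S/Z, 3 were higher and 1 lower (34.1% and 23.8%). Against DMSO, T/5z/N had 3 higher and 2 lower (18.2% and 22.3%) and T/S/Z/N 4 higher and 1 lower (20.3% and 25.7%). Between the stimuli, 0 of 9 passed the threshold by limma, 6 had an unadjusted p under 0.05, and 9.83% of tested genes passed. At any size, Cflar and Casp8 were higher and Fadd and Cyld lower in T/S/Z than in T/5z, against 18.7% and 21.4% of tested genes, and the differences of 0.20 for Casp8 and -0.21 for Fadd (limma adjusted p = 0.0265 and 0.0465) had an adjusted p over 0.05 without some replicates, up to 0.129 and 0.154. For the difference between the effects of Nec-1s, 0 of 9 passed the threshold by limma, 3 had an unadjusted p under 0.05, and 6.47% of tested genes passed. At any size 3 were higher (Casp8, Cyld and Map3k7) and 0 lower, against 14.8% and 11.1% of tested genes. In N against DMSO 0 of 9 passed by limma, as did 0% of tested genes, and 1 member, Cflar, had an unadjusted p under 0.05. Cflar was 0.16 lower with Nec-1s alone, in 4 of 4 pairs (limma adjusted p = 0.526).

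**Figure D2:**
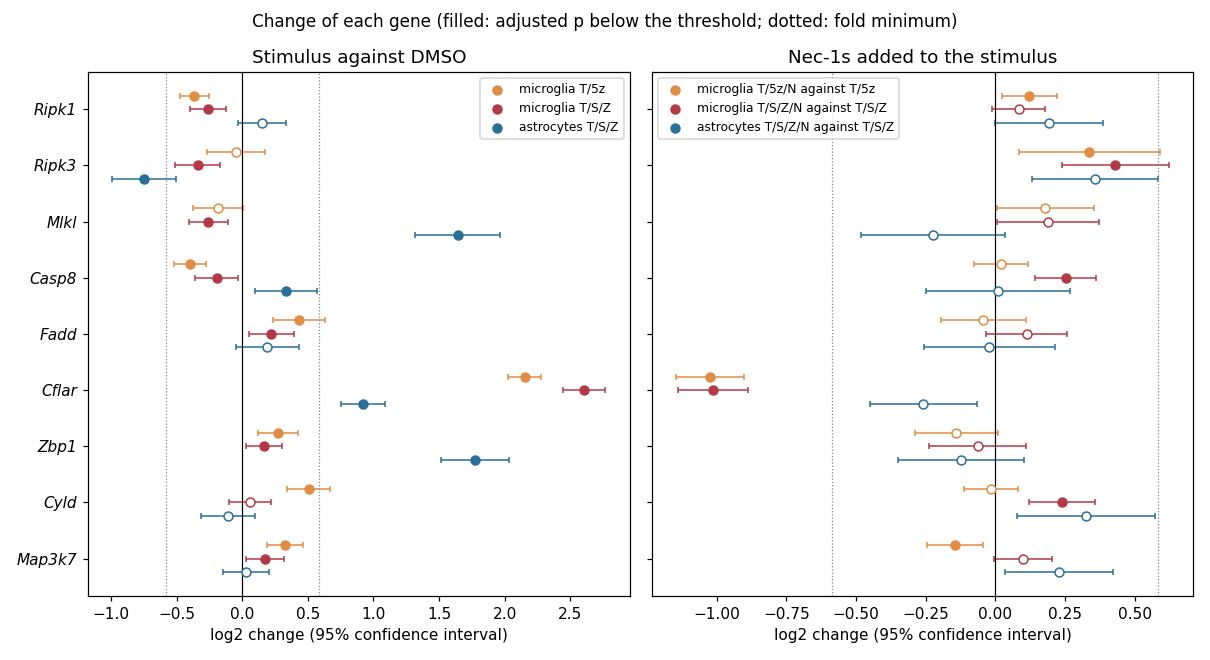
Change of each of the 9 genes (rows) on the log2 scale (x axis, with 95% confidence intervals) in stimulus against DMSO (left) and after Nec-1s was added to the stimulus (right), for microglia in T/5z and T/S/Z and for astrocytes in T/S/Z. Filled points had an adjusted p under 0.05 and dotted lines mark a fold of 1.5, so that Cflar in microglia is the point beyond the line on the right, at -1.02 and -1.01.

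In astrocytes Mlkl, Zbp1 and Cflar rose and Ripk3 fell under T/S/Z. Mlkl read 1.20, 0.84 and 0.84 in DMSO and 2.50, 2.59 and 2.72 in T/S/Z. Zbp1 read 1.52, 1.72 and 1.43 in DMSO and 3.41, 3.28 and 3.31 in T/S/Z. Neither gene had overlapping groups, and both were low in DMSO, so the scale understates their changes. Mlkl rose by 1.64 (SE 0.137, limma adjusted p = 0.000147) and Zbp1 by 1.78 (SE 0.111, limma adjusted p = 3.69e-05), each in 3 of 3 pairs. With 5 instead of 1 added before the log these changes were 0.76 and 1.02, still past the threshold. As FPKM, the ratio of Mlkl to Ripk3 went from 0.301 ± 0.089 in DMSO (SD, n = 3) to 3.40 ± 0.35 in T/S/Z and 1.92 ± 0.26 in T/S/Z/N.

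Cflar read 4.43, 4.40 and 4.58 in DMSO astrocytes and 5.38, 5.35 and 5.46 in T/S/Z, and it rose by 0.92 (SE 0.0714, limma adjusted p = 0.000103). Ripk3 went the other way, from 2.09, 2.15 and 1.97 in DMSO to 1.27, 1.39 and 1.30 in T/S/Z, and fell by 0.75 (SE 0.103, limma adjusted p = 0.00156). With 5 added, the change of Ripk3 was -0.33 and under the fold minimum. So 3 of the 9 genes rose and 1 fell past the threshold, against 6.39% and 8.99% of tested genes in these directions and 15.4% in either. At any size, 4 were higher and 1 lower, against 13.5% and 26.9%, and the median change of the 9 was 0.19 beside -0.11 for all tested genes. With an ordinary variance for each gene in place of limma's shared one, 1 of the 9 passed the threshold, which was Cflar. The adjusted p of Mlkl, Zbp1 and Ripk3 was then 0.0803, 0.0601 and 0.0590.

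The remaining astrocyte values were smaller. Casp8 read 3.56, 3.63 and 3.75 in DMSO and 3.66, 4.14 and 4.14 in T/S/Z, where 1 library lies among the DMSO values. Its difference of 0.33 (limma adjusted p = 0.0349) had an adjusted p of 0.0672, 0.151 and 0.0923 without replicate 1, 2 or 3. Ripk1 was 0.15 higher (limma adjusted p = 0.159), with T/S/Z libraries between 4.38 and 4.55 above DMSO libraries between 4.24 and 4.31. Fadd, Cyld and Map3k7 overlapped DMSO, with differences of 0.19, -0.11 and 0.03 (limma adjusted p = 0.178, 0.341 and 0.795).

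Markers of other cell types in the astrocyte cultures moved with these results. The 10 microglial markers summed to between 78.3 and 84.0 FPKM in DMSO astrocytes, 47.8 to 51.7 in T/S/Z and 70.3 to 73.9 in T/S/Z/N. At or under a log2 value of 1 were 1 of them in DMSO and 4 in T/S/Z. The 5 markers of fibroblasts and mural cells summed to between 283 and 313 FPKM in DMSO, 68.3 to 76.7 in T/S/Z and 259 to 267 in T/S/Z/N. The endothelial markers, of which 2 of 4 are in the table, had a median sum of 16.8 FPKM in DMSO and 3.71 in T/S/Z and lay between 9.54 and 10.8 in T/S/Z/N. The oligodendrocyte markers, 6 of 7, went from between 83.2 and 99.0 to between 50.2 and 73.4 in T/S/Z and 54.6 and 58.6 in T/S/Z/N. The neuronal list, with 1 of 4 markers in the table, had medians of 12.3, 14.4 and 11.0. All but the neuronal sum were lower in T/S/Z, as Ripk3 was, whereas Mlkl, Zbp1 and Cflar were higher. Their part in the change of any of these genes was not tested.

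**Figure D3:**
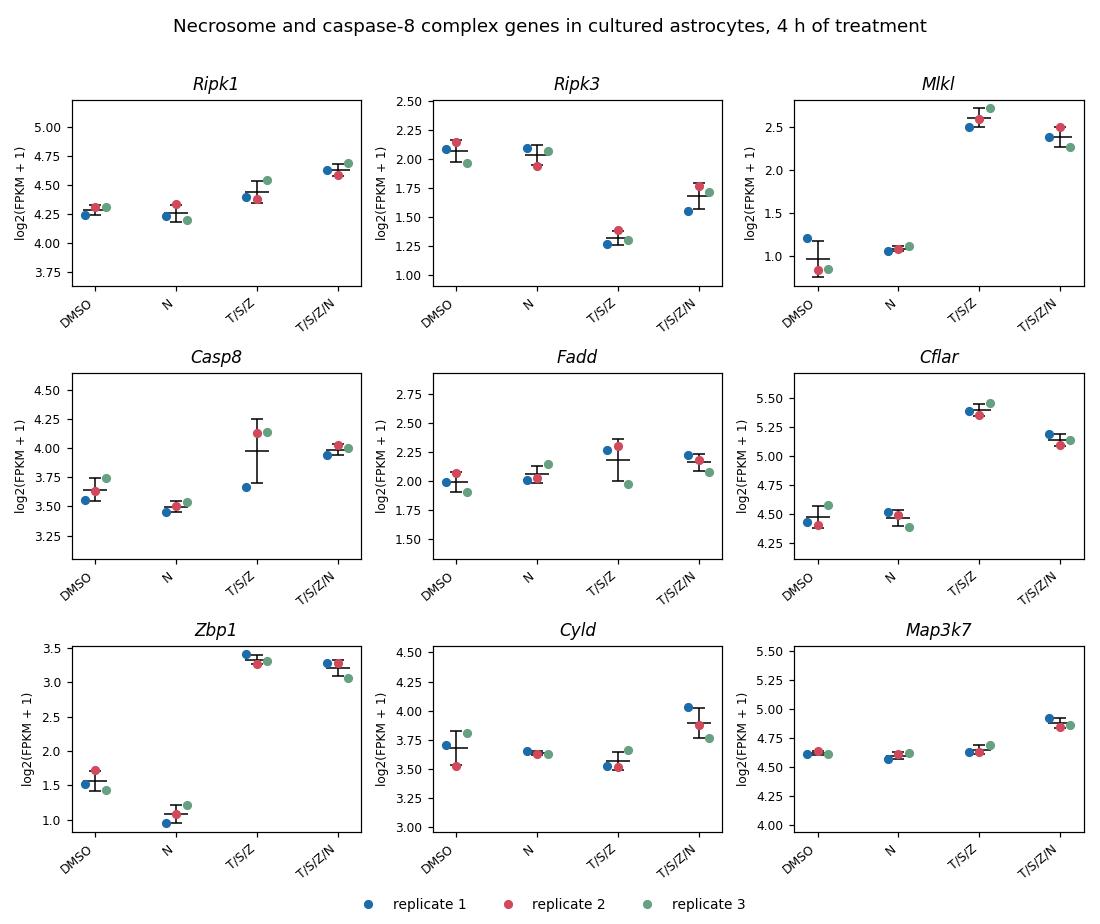
Values of the 9 genes in each astrocyte library (y axis, log2(FPKM + 1), each panel with its own range of at least 1.6 units) by treatment (x axis), with 3 libraries per treatment, horizontal bars for the mean and error bars for the SD. Mlkl, Zbp1 and Cflar are higher and Ripk3 lower in every T/S/Z library than in every DMSO library.

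Nec-1s added to T/S/Z moved none of the 9 genes past the threshold in astrocytes. By limma 0 of 9 passed, 0 had an adjusted p under 0.05 and 4 had an unadjusted p under 0.05 (Ripk3, Cflar, Cyld and Map3k7), while 3.10% of tested genes passed the threshold and 7.82% had an adjusted p under 0.05. Ripk3 read 1.55, 1.77 and 1.71 with Nec-1s, all above T/S/Z, a difference of 0.36 (95% interval 0.13 to 0.58, limma adjusted p = 0.0655). Cflar read 5.19, 5.09 and 5.13, all below T/S/Z, a difference of -0.26 (95% interval -0.45 to -0.07, limma adjusted p = 0.0911). In microglia the same comparison gave -1.01, outside this interval, but the tables were normalized separately and the difference between the cell types was not tested. Cyld read 4.03, 3.88 and 3.77 against 3.53, 3.52 and 3.66 in T/S/Z, a difference of 0.32 (95% interval 0.08 to 0.57, limma adjusted p = 0.0966), which had an adjusted p of 0.0182 without replicate 3. In 1 fit over all astrocyte groups the adjusted p was under 0.05 for these 4 genes, 0.0243 for Ripk3, 0.0263 for Cflar, 0.0287 for Cyld and 0.0221 for Map3k7. Mlkl was 0.22 lower and Zbp1 0.12 lower (limma adjusted p = 0.221 and 0.424).

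Against DMSO, T/S/Z/N still held Mlkl 1.42 higher (2.38, 2.49 and 2.27, limma adjusted p = 0.000654) and Zbp1 1.65 higher (3.28, 3.28 and 3.07, limma adjusted p = 0.000142), or 0.63 and 0.93 with 5 added before the log. Cflar was 0.67 higher (limma adjusted p = 0.00174), or 0.58 and under the fold minimum with 5 added. These 3 of 9 passed the threshold, against 9.08% of tested genes, and with an ordinary variance for each gene 0 of 9 passed, with adjusted p-values from 0.0679 for Zbp1 to 0.104 for Mlkl. At any size 6 were higher and 1 lower (9.78% and 17.2% of tested genes). Besides the 3 above, these were Ripk1 at 0.34, Casp8 at 0.34 and Map3k7 at 0.26 higher, and Ripk3 at 0.39 lower (limma adjusted p = 0.0156, 0.0215, 0.0358 and 0.0336). Each of these 4 had an adjusted p over 0.05 without at least 1 replicate, up to 0.0861 for Ripk1, 0.137 for Casp8, 0.138 for Map3k7 and 0.134 for Ripk3, whose difference was -0.19 with 5 added. In N against DMSO 0 of 9 passed by limma, 1 had an unadjusted p under 0.05, and 0.0144% of tested genes passed. That gene was Zbp1, at 0.95, 1.09 and 1.21 with Nec-1s alone, all under the DMSO libraries, with a difference of -0.48 (limma adjusted p = 0.850).

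Set side by side in DMSO, the tables differ most for Zbp1 and Mlkl. In DMSO the FPKM of Mlkl in astrocytes was 12.2% of that in microglia, and in T/S/Z it was 79.1%. Zbp1 stood at 4.20% and 17.4%. For Cflar the astrocyte level was 123% of the microglial level in DMSO and 37.5% in T/S/Z, and for Map3k7 it was 194% and 174%. Ripk1, Casp8 and Fadd lay between 37.2% and 54.4% in DMSO, and Ripk3 and Cyld at 89.4% and 83.1%. The microglial markers in astrocytes had a median of 1.54% of their microglial level in DMSO (from 0.349% to 43.0%) and 0.641% in T/S/Z (from 0.177% to 18.7%). Provider and normalization differ between the tables and cannot be told apart from cell type, so no test was made.

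**Figure D4:**
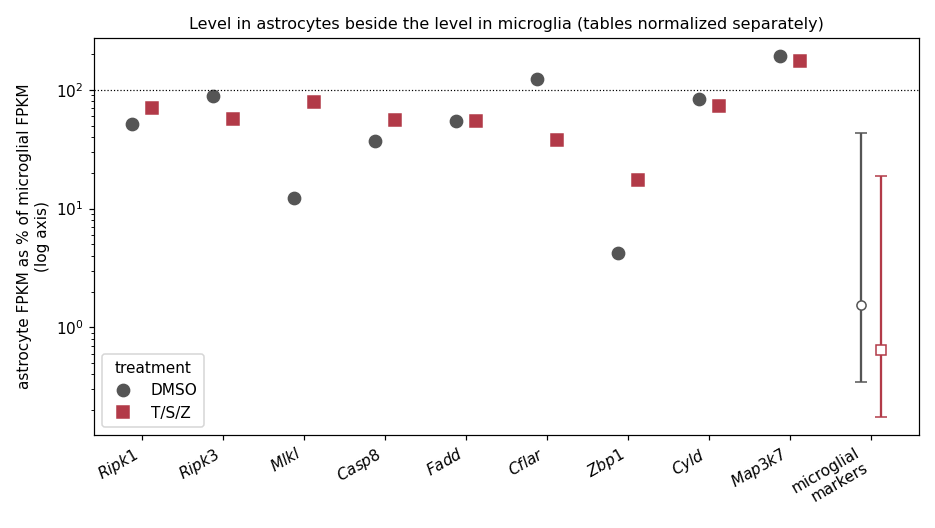
Mean FPKM in astrocytes as a percentage of mean FPKM in microglia (y axis, log scale) for each of the 9 genes in DMSO (circles) and T/S/Z (squares), with the median and range of 10 microglial marker genes at the right. Mlkl moves from 12.2% to 79.1% and Cflar from 123% to 37.5%, and the dotted line marks equal levels in tables that were normalized separately.

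Of 38 further genes of the pathway in 6 lists, all tested in both tables, 12 were higher and 4 lower past the threshold in T/5z, and 10 higher and 3 lower in T/S/Z in microglia, where 11.1% of tested genes were higher and 13.3% lower past it in T/5z and 12.2% and 17.5% in T/S/Z. Their median change was 0.28 in T/5z and 0.21 in T/S/Z, beside -0.06 and -0.08 for all tested genes. The ubiquitin-editing list (6 genes) held the largest changes. Tnfaip3, the A20 ubiquitin editor, was 3.41 higher in T/5z and 4.55 higher in T/S/Z (limma adjusted p = 9.44e-07 and 9.29e-09), and its partner Tnip1 was 2.26 and 2.63 higher. With Nec-1s Tnfaip3 was at -1.29 against T/5z and at -2.05 against T/S/Z (limma adjusted p = 1.49e-05 and 2.40e-07). In this list 3 of 6 passed higher in T/5z and 2 of 6 in T/S/Z, with 0 lower in either.

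In the TNF receptor complex list (8 genes) 3 passed higher in T/5z and 2 in T/S/Z, with 0 lower. The adaptor Traf2 was 0.99 and 0.67 higher. The cIAP ligases split here. Birc3 was 2.14 higher in T/5z and 1.64 in T/S/Z, whereas Birc2 was 1.68 higher in T/5z and had an adjusted p of 0.0598 in T/S/Z, with T/S/Z against T/5z at -1.496 (limma adjusted p = 4.00e-05). With Nec-1s Birc2 moved in opposite directions, by -0.63 after T/5z and by 0.65 after T/S/Z, and the test of that difference gave 1.28 (limma adjusted p = 3.28e-06). In the TAK1 and IKK list (9 genes) 3 passed higher and 1 lower in each stimulus. Ikbke was 2.39 and 1.89 higher, Mapkapk2, which phosphorylates RIPK1, was 1.84 and 1.64 higher, and of the TAK1 partners Tab1 was 0.68 and 1.06 lower while Tab2 was 0.81 higher in T/5z.

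Among the RHIM inputs (4 genes) 0 passed higher and 1 lower in T/5z, and 1 higher and 1 lower in T/S/Z. Tlr4 was 1.77 and 1.90 lower, and the adaptor Ticam1 was 0.67 higher in T/S/Z. Of the caspase-8 substrates and executioners (6 genes) 1 passed higher and 2 lower in T/5z, and 0 higher and 1 lower in T/S/Z. In T/5z the pore-forming Gsdmd was 0.64 higher and Gsdme 0.79 lower. The list of genes that handle RIPK3 and MLKL (5 genes) had 2 higher and 0 lower in each. The phosphatase Ppm1b was 0.91 and 0.66 higher. Over all 38, Nec-1s gave 2 higher and 3 lower after T/5z (2.64% and 4.52% of tested genes) and 5 higher and 4 lower after T/S/Z (5.35% and 6.72%). Tlr4 was among the higher ones in both, by 0.69 after T/5z and by 1.16 after T/S/Z.

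In astrocytes 10 of the 38 passed higher and 1 lower in T/S/Z, against 6.39% and 8.99% of tested genes, with a median change of 0.22 beside -0.11 for all tested genes. By list these were 4 higher in the TNF receptor complex, 1 among the TAK1 and IKK kinases, 2 in ubiquitin editing, 1 among the RHIM inputs, and 2 higher and 1 lower among the caspase-8 substrates and executioners. The list of genes that handle RIPK3 and MLKL had 0. Tnfaip3 was 4.01, Birc3 3.31, Tnip1 3.10 and Birc2 1.19 higher. Bid, the caspase-8 substrate that links to mitochondria, was 2.08 higher (limma adjusted p = 6.85e-06).

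Across all libraries of a table, the genes most like a member were described by Pearson's r, with no p, since the points share treatments. Over the 24 microglial libraries Cflar was followed most closely by Samd4b (r = 0.995), Pak4 (r = 0.993) and the inflammasome gene Nlrp3 (r = 0.992). Ripk1 was followed by Kif13b (r = 0.977), Casp8 by Ptger2 (r = 0.936) and Gsdme (r = 0.928), and Cyld by Rassf4 (r = 0.968). Ripk3, Mlkl and Zbp1 had no gene above 0.865, 0.901 and 0.876 there. Over the 12 astrocyte libraries Mlkl was followed by Bhlhe40 (r = 0.993) and Parp12 (r = 0.991), and Zbp1 by Ddx58, the cytosolic RNA sensor RIG-I (r = 0.993). Ripk3 was followed by Prss12 (r = 0.984), Tmeff2 (r = 0.980) and Tmem119 (r = 0.978), and Cflar by Elovl7 (r = 0.995). Tmem119 is on the list of microglial markers. In DMSO astrocytes it stood at 43.0% of its microglial level, where the median of the listed markers was 1.54%.

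All 9 members are protein-coding, and their identifiers matched GENCODE M21 on GRCm38. Cflar (ENSMUSG00000026031) lies on chromosome 1 from 58711551 to 58758884 in the microglial table and Casp8 (ENSMUSG00000026029) beside it from 58795374 to 58847503, both on the plus strand. Mlkl (ENSMUSG00000012519, chr8:111311797-111338177, minus strand) and Zbp1 (ENSMUSG00000027514, chr2:173206612-173218923, minus strand) rose in astrocytes, as Cflar did. The authors' annotation marks Ripk1, Mlkl, Casp8, Fadd, Cyld and Map3k7 as confounded, a term it does not define, and leaves Ripk3, Cflar and Zbp1 unmarked. In GENCODE, exon bases are shared with a neighbour only by Ripk1, as above, and by Fadd, with 239 bases of the antisense gene Faddos, where reads cannot be told apart in the microglial libraries. Exon lengths differ between the tables, 7870 bases for Cflar in microglia and 12669 in astrocytes, which bears on the levels set side by side and not on changes within a table.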

How the data were processed

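Polyadenylated RNA of 24 microglial and 12 astrocyte libraries was measured. According to the study's methods, the authors aligned and quantified the reads in OmicSoft Array Studio. They deposited log2 values of FPKM with 1 added, scaled to the 75th percentile, in a table per cell type. The labels name different providers for the 2 cell types and a strand-specific protocol for astrocytes only. For each gene of the microglial table, replicates 1 to 3 have the same average across treatments as replicate 4 (largest difference 6.67e-05), an adjustment not given in the sources used here. It leaves up to 1438 negative values in a library. The vehicle is spelled DSMO in some labels and was read as DMSO.

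The members and the pathway lists were chosen with earlier results of these data known. Every member is named. Genes of the pathway lists could be named where they passed the threshold in at least 1 comparison, though not all of those are, and the 3 most alike genes were kept per member. Genes with a log2 value of at least 1 in at least 4 microglial or 3 astrocyte libraries were tested with limma 3.58.1 in R 4.3.3 (lmFit, eBayes with trend) on the 2 groups compared, 2-sided, with the replicate number as a block as in the study's paired test. The interaction used the 4 stimulated microglial groups. The fit was tested on simulated data. Total counts are unknown. Depth was estimated from the spacing of low values after the authors' scaling, so it is depth relative to the scaling factor of each library. Of these values, 79.4% (astrocytes) and 67.7% (microglia, replicate 4) lay within 0.1 of a whole number, too few to recover reads. Whether the unit is reads or fragments was not settled. Promoters are from RefSeq (GRCm38.p6) and matched 8 of the 9 members. Alternatives were quantile normalization, centring on medians, 5 added before the log, no filter, no block, 1 fit over all groups, ordinary variance and leaving out each replicate. All columns of values were mapped to a sample.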

Additional observations from a re-analysis of the deposited data

Results flagged for a closer look

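Among 54 groups of 4 microglial libraries (9 genes in 6 treatments), 3 had a library that stood apart from the others by Dixon's test at the 95% level, which chance alone does in about 1 group in 20. The replicate averages of these values had been made equal before deposit, so the spread of unadjusted libraries was not examined. Ripk1 in replicate 3 of N read 5.11, against 5.21 to 5.22 in the other libraries. Cflar in replicate 4 of T/5z read 6.25, against 6.36 to 6.37. Cyld in replicate 2 of T/S/Z read 4.12, against 3.93 to 3.96.

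The effect of Nec-1s after T/S/Z minus its effect after T/5z in microglia was 0.23 for Casp8, 0.25 for Cyld and 0.24 for Map3k7 by limma (adjusted p = 0.0225, 0.0241 and 0.00538), against 14.8% of tested genes with a difference in that direction at an adjusted p under 0.05. For Casp8 and Cyld the adjusted p passed 0.05 without some replicates, and for Map3k7 it did not.

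In some comparisons every microglial pair moved one way and every astrocyte pair the other, and the difference between the cell types was not tested. For T/S/Z against DMSO these were Mlkl (-0.26 in microglia and 1.64 in astrocytes), Casp8 (-0.19, or -0.10 after centring the libraries on their medians, and 0.33) and Ripk1 (-0.26 and 0.15). For T/S/Z/N against DMSO it was Ripk1 (-0.18 and 0.34).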

How the results depend on the processing

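Of 52 member changes with an adjusted p under 0.05, 51 kept their direction under all 11 alternatives in microglia and 10 in astrocytes. The exception was Zbp1 in T/S/Z against DMSO in microglia, at -0.0080 after quantile normalization. An adjusted p under 0.05 held under every alternative for 23 of the 52, among them Cflar in every microglial stimulus and Nec-1s comparison. The count past the threshold moved by over 1.5 times only with an ordinary variance for each gene, to 1 in astrocytes for T/S/Z against DMSO and to 0 for T/S/Z/N against DMSO. Among changes past an adjusted p of 0.05, adding 5 before the log moved most of those of Fadd and Ripk3 in microglia, and of Ripk3, Mlkl and Zbp1 in astrocytes, by over 1.5 times. These tables hold no counts, so depth bounds the low values of Ripk3, Mlkl and Zbp1 in astrocytes most.

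Without the replicate block, the count past the threshold was the same in all 13 comparisons, for example 4 in astrocytes for T/S/Z against DMSO and 1 in microglia. At any size, 1 call was lost, Casp8 in T/S/Z against DMSO in astrocytes (adjusted p = 0.0998), and 8 were gained, among them Mlkl in T/5z against DMSO in microglia (adjusted p = 0.0347) and Ripk3 in T/S/Z/N against T/S/Z in astrocytes (adjusted p = 0.0480). In astrocytes the deviations of same-numbered libraries correlated between -0.14 and 0.41, so a shared number does not show a shared culture. In microglia the authors' adjustment fixes these correlations and they say nothing of pairing. It had also removed differences between replicate averages, so leaving out the block there cannot bring them back. For microglia, the unchanged counts and the gained calls are therefore no check on the block.

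Of the 65 other changes, 21 changed sign under some alternative. With libraries centred on their medians, Casp8 was 0.0084 in N against DMSO and -0.029 in T/5z/N against T/5z in microglia, Ripk3 was 0.022 in T/5z against DMSO, Mlkl was 0.017 in T/5z/N against DMSO, and the difference between the effects of Nec-1s was -0.017 for Mlkl and -0.015 for Cflar. That difference for Cflar was -0.0067 with 5 added before the log. After quantile normalization Ripk3 was 0.10 in T/5z against DMSO, Fadd was -0.010 and Zbp1 0.035 in T/S/Z/N against T/S/Z, Mlkl was 0.028 in T/5z/N against DMSO, and the difference between the effects was -0.055 for Mlkl. Leaving out each replicate in turn gave these ranges. For N against DMSO in microglia they were Ripk3 -0.055 to 0.083, Map3k7 -0.063 to 0.013, Casp8 -0.021 to 0.028 and Fadd -0.079 to 0.031. For T/5z against DMSO in microglia it was Ripk3 -0.11 to 0.031. For T/5z/N against DMSO in microglia it was Mlkl -0.036 to 0.015. For T/S/Z/N against DMSO in microglia it was Mlkl -0.11 to 0.0054. For N against DMSO in astrocytes they were Ripk3 -0.10 to 0.054, Ripk1 -0.059 to 0.012, Fadd -0.016 to 0.13, Cflar -0.055 to 0.086 and Cyld -0.12 to 0.026. For T/S/Z/N against T/S/Z in astrocytes they were Casp8 -0.12 to 0.085 and Fadd -0.084 to 0.030. For the difference between the effects of Nec-1s in microglia they were Ripk1 -0.071 to 0.0002, Ripk3 -0.064 to 0.21, Cflar -0.023 to 0.034 and Mlkl -0.074 to 0.063.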
